A study of Mus musculus with 4 samples.

Results

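The genes described here encode the proteins that place, read and remove N6-methyladenosine (m6A) on messenger RNA. They were taken as the 10 genes named Wtap, Mettl3, Mettl14, Zc3h13, Ythdf1, Ythdf2, Ythdf3, Ythdc1, Alkbh5 and Fto among the 19500 genes listed in both deposited tables, and all 10 passed the filter on low counts. Poly(A) RNA of mouse brain at embryonic day 13 (E13), on a C57BL/6 background, had been sequenced in 2 samples with floxed Wt1 alleles (Wt1 fl/fl, also labelled WT, here Wt1_flfl) and 2 samples of a Wt1 conditional knockout (Wt1CKO, here Wt1_CKO). Each deposited table holds the 2 samples of one replicate number, called pair 1 and pair 2. The labels do not name the Cre driver or the part of the brain, and do not say whether the floxed controls carried a Cre or whether a sample was 1 embryo or a pool, so the p-values speak only of the spread among these 4 samples, which may be technical. No check of the genotype labels against the Wt1 transcript was made here.

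m6A is the most abundant internal mark of messenger RNA. A complex in the nucleus writes it: Mettl3 is the catalytic subunit, Mettl14 binds the RNA beside it, and Wtap, found as a partner of the Wt1 protein, together with Zc3h13 holds the complex in the nuclear speckles. Proteins with a YTH domain read the mark, Ythdc1 in the nucleus and the Ythdf proteins in the cytoplasm, and Alkbh5 and Fto are oxygenases that can remove it. In the embryonic cortex, loss of Mettl14 is known to slow the cell cycle of radial glia and to prolong neurogenesis.

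Since Wt1 is a zinc finger factor that binds DNA, the promoter windows of these genes were searched, on both strands, for 3 words known for Wt1 or for the related Egr factors. RefSeq windows (GRCm38.p6), from 250 bases before to 50 after the start, were on hand for 8 of the 10 genes, with no entry for Mettl14 or Ythdf3. Among all genes the table held 32851 windows of 27025 genes, and 11 windows for the 8. The word GCGNGGGCG was found in 1 of the 8 genes, Ythdc1, and in 6.27% of all genes (1 of the 11 windows and 5.55% of all windows). The word GCGTGGGAG was found in 1 of the 8, Zc3h13, and in 0.544% of all genes (2 of the 11 windows and 0.472% of all windows). The word TCCTCCTCC was in 0 of the 8 and in 3.42% of all genes (3.03% of all windows). No 2 of these words overlapped in the windows of the 8 genes. In Zc3h13 the match was at the same place in both of its windows. The 250 bases before the start are shown for Wtap, as the gene tied to Wt1 by name and without a match, and for both genes with a match, which stands in capitals and lies on the opposite strand in each. Wtap is read on the minus strand at chr17:12992544-12992793, Zc3h13 on the plus strand at chr14:75284116-75284365 and Ythdc1 on the plus strand at chr5:86804016-86804265. Wtap also had windows of other starts, with the bases before the start at chr17:12992540-12992789 and chr17:12992260-12992509, which are not shown and held no match. The match begins 183 bases before the start of Zc3h13 and 113 bases before that of Ythdc1.
Wtap: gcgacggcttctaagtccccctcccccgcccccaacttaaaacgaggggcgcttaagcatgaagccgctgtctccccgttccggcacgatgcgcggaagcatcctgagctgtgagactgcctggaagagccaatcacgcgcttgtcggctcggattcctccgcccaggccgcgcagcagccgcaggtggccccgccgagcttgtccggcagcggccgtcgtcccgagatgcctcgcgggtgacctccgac
Zc3h13: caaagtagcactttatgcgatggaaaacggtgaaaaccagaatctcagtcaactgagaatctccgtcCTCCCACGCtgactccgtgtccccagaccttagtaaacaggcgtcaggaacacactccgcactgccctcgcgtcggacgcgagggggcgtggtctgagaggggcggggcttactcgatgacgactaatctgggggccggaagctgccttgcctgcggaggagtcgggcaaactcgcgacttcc
Ythdc1: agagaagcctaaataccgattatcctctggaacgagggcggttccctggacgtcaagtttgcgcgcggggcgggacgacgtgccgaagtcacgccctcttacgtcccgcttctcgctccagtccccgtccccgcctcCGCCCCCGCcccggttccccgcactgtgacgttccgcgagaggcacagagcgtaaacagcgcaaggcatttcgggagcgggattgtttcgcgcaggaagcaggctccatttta
A match is a description of the letters and no evidence that Wt1 binds there.

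The 4 libraries held 16219310 to 17704698 counts. The tissue label was matched by progenitor markers (5 of 5 listed, 1846 to 2338 CPM in sum, where CPM is the count scaled to a total of 1000000 listed counts) and neuron markers (5 of 5 listed, 4551 to 5366 CPM in sum). Some libraries differed from the rest in other ways. Wt1_flfl replicate 1 held 1201 counts of Rn7sk, an RNA without a poly(A) tail, against 14 to 25 in the other libraries, and 0.458% of its counts were ribosomal RNA, against 0.0184% to 0.0451%. Wt1_CKO replicate 1 held 4 counts of Xist, which silences an X chromosome in females, where the other libraries held 13086 to 16472. It also held 1141, 512, 846 and 1776 counts of the Y-linked genes Kdm5d, Uty, Ddx3y and Eif2s3y. Wt1_flfl replicate 1 held 0, 0, 0 and 4 of these, and the pair 2 libraries have no listed values. The Xist and Y-linked counts of Wt1_CKO replicate 1 are those of a male sample. The labels give no sex, and its part in the genotype comparison was not tested. In pair 1 this library stands against the Wt1_flfl library with high Rn7sk, so genotype and these differences cannot be told apart in any pair 1 ratio. Red cell markers summed to 733 and 681 CPM in the replicate 1 libraries and to 1642 and 1676 CPM in the replicate 2 libraries, with Wt1_flfl first. Choroid plexus markers summed to 1.42 and 45.2 CPM in the replicate 1 libraries and to 18.1 and 2.86 CPM in the replicate 2 libraries, in the same order. The part of these markers in the genotype comparison was not tested.

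The genotypes were compared first. None of the 10 genes passed the threshold between Wt1_CKO and Wt1_flfl brain in edgeR's quasi-likelihood test with Benjamini-Hochberg adjustment, with 0 at an unadjusted p under 0.05. Across all 15933 genes tested 0.00628% passed the adjusted threshold and 1.56% the unadjusted one (0.596% with the higher level in Wt1_CKO), so a count of 0 among 10 genes is near the background. DESeq2 and limma-voom also called 0 of the 10, beside 5 and 1 of all genes tested. Each had 0 of the 10 at an unadjusted p under 0.05, beside 146 and 232 of the 15933, so these counts are near the background too. The log2 fold changes lay between -0.03 (Fto) and 0.17 (Ythdf3), with a median of 0.05 beside a median of 0.01 over all genes tested. The median size of change, regardless of sign, was 0.05 for these genes, 0.12 over all genes tested and 0.09 over the 10140 genes averaging 10 CPM or more. A change larger than that of Ythdf3 was found for 35.6% of all genes tested. The 95% interval of each gene from limma-voom included 0, and together the intervals ran from -0.46 (Alkbh5) to 0.64 (Ythdf3), so no interval reached a log2 change of 1 in either direction. The count of called genes among the 10 was 0 without each library in turn, the library with 4 counts of Xist included. Each of those fits leaves 1 sample in a genotype and takes its spread from the other genotype, and over all genes they called 3 to 73, so they say little about the stability of a count of 0.

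**Figure D1:**
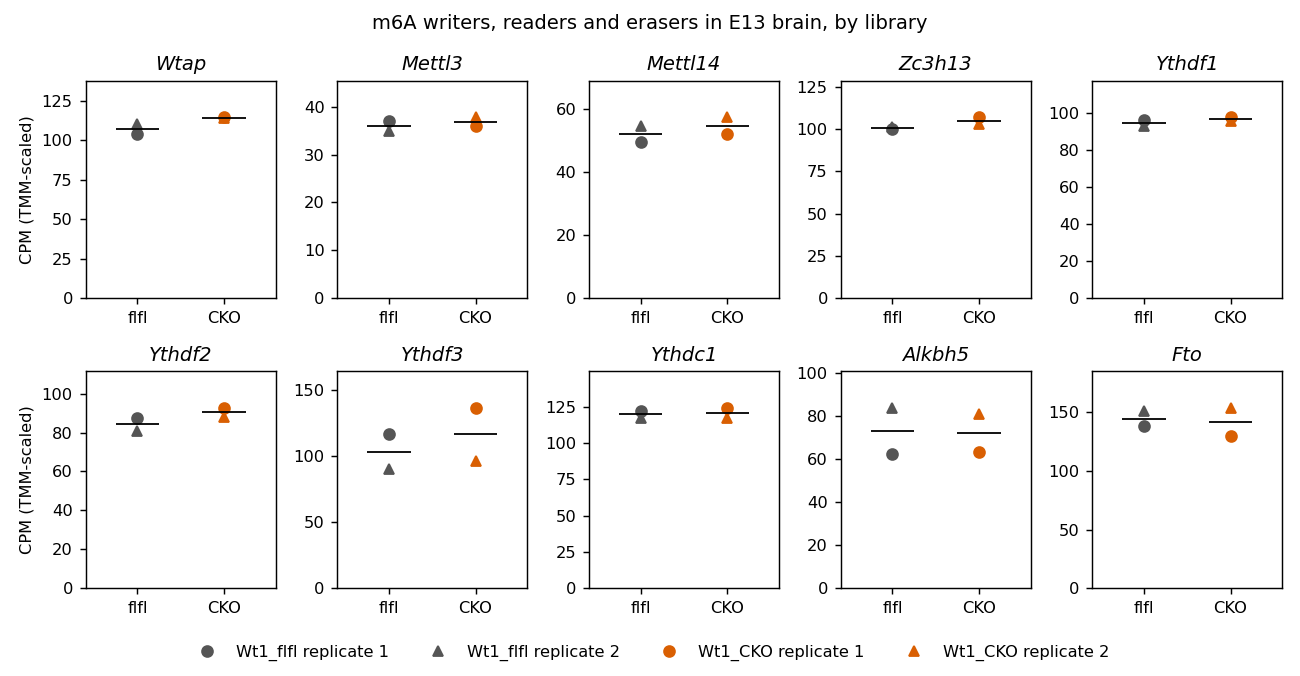
Level of each gene (CPM after TMM scaling, y axis from 0) in the 4 libraries, with circles for replicate 1, triangles for replicate 2 and a line at the mean of each genotype (n = 2). The Wt1_CKO points lie above both Wt1_flfl points for Wtap, Zc3h13 and Ythdf2, and the circles and triangles lie apart for Ythdf3 and Alkbh5.

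Among the writers, Wtap (ENSMUSG00000060475, chromosome 17, 12966796 to 12992546, minus strand, GRCm38, positions as deposited, with further transcripts up to 12994169 in GENCODE vM21), the regulatory subunit that brings Mettl3 and Mettl14 to the speckles, had 104 and 110 CPM in Wt1_flfl replicates 1 and 2 and 115 and 114 CPM in Wt1_CKO replicates 1 and 2. From here on, CPM are scaled by TMM, a trimmed mean of log ratios between libraries. Both Wt1_CKO libraries were above both Wt1_flfl libraries. The means were 107 ± 4.31 and 114 ± 0.436 CPM (SD, n = 2 each), a difference of 6.63% with an edgeR adjusted p of 0.99996. Its limma-voom interval ran from a value 10.3% lower (-10.3%) to one 26.8% higher. In pair 1 the ratio of Wt1_CKO to Wt1_flfl was 1.10, with an exact 95% interval from 1.03 to 1.17, and in pair 2 it was 1.03, from 0.970 to 1.10. These intervals cover counting error only and no spread between samples, as each ratio is of 1 library to 1. The reads carry no molecular identifiers, so copies of 1 molecule can be counted more than once and the intervals can be too narrow. Of the 50-base words in the Wtap transcripts 4.54% also occur in the processed pseudogene Gm14292, which held 233, 238, 298 and 215 counts in Wt1_flfl replicates 1 and 2 and Wt1_CKO replicates 1 and 2, so reads can be split between them.

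Zc3h13 (ENSMUSG00000022000, chromosome 14, 75284373 to 75344426, plus strand), which anchors the complex in the nucleus, had 100.01 and 101 CPM in the Wt1_flfl libraries and 107 and 103 CPM in the Wt1_CKO libraries. These groups did not overlap either. The log2 fold change was 0.06, within a limma-voom interval from -0.19 to 0.31. Mettl3 (ENSMUSG00000022160, chromosome 14, 52294668 to 52305128, minus strand), the methyltransferase itself, measured 37.0 and 35.1 CPM in the Wt1_flfl libraries and 36.0 and 37.9 CPM in the Wt1_CKO libraries. Its genotypes overlapped, and its log2 fold change of 0.04 had an interval from -0.27 to 0.34. The gene overlaps exons of Tox4 on the other strand over 18.4% of its exonic length, and reads in that stretch cannot be assigned to either gene without strand, which the labels leave unstated. Tox4 held 1466 and 1732 counts in Wt1_flfl and 1675 and 1864 counts in Wt1_CKO.

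Mettl14 (ENSMUSG00000028114, chromosome 3, 123368297 to 123386108, minus strand), the RNA-binding partner of Mettl3, measured 49.3 and 54.5 CPM in the Wt1_flfl libraries and 51.9 and 57.3 CPM in the Wt1_CKO libraries. The replicate 2 library was the higher one in both genotypes, and the genotypes overlapped. Either pair gave a log2 fold change of 0.07, with a counting interval that included no change. The ratio of Mettl14 to Mettl3 per length was 0.912, 1.06, 0.985 and 1.03 in Wt1_flfl replicates 1 and 2 and Wt1_CKO replicates 1 and 2, so the ranges of the genotypes overlapped. The 4 writers summed to 291 and 301 CPM in Wt1_flfl and to 310 and 312 CPM in Wt1_CKO, a description of the genes as chosen and given no test.

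Among the readers, Ythdf2 (ENSMUSG00000040025, chromosome 4, 132184912 to 132212303, minus strand), which brings methylated RNA to the deadenylation machinery, measured 87.7 and 81.0 CPM in the Wt1_flfl libraries and 92.8 and 88.2 CPM in the Wt1_CKO libraries. The lower Wt1_CKO library stood just above the higher Wt1_flfl library. The difference was 7.32%, with a limma-voom interval from -10.6% to 29.1% and an edgeR adjusted p of 0.99996. In pair 2 the ratio was 1.09, with a counting interval from 1.01 to 1.17, and in pair 1 it was 1.06, from 0.985 to 1.14. Of its 50-base words 7.49% occur in other genes, with 6.69% in the pseudogene Gm6823 and 6.24% in the pseudogene Gm8401. Gm8401 held 1 to 6 counts a library, and no gene by the name Gm6823 was listed in the deposited counts. Ythdf1 and Ythdf3 shared 0 such words with any other gene, so the close YTHDF relatives had none in common.

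Ythdf3 (ENSMUSG00000047213, chromosome 3, 16183212 to 16217037, plus strand), a cytoplasmic reader that acts with the other YTHDF proteins, measured 116 and 90.6 CPM in the Wt1_flfl libraries and 137 and 96.3 CPM in the Wt1_CKO libraries. Replicate 1 was high and replicate 2 low in both genotypes, and the genotypes overlapped. It had the largest difference of the 10 genes, 12.6%, and the widest spread, at 103 ± 18.2 CPM in the floxed controls and 116 ± 28.6 CPM in the knockout (SD, n = 2 a genotype). The ratio was 1.17 in pair 1, with a counting interval from 1.11 to 1.25, and 1.06 in pair 2, from 0.991 to 1.14. Without Wt1_CKO replicate 1 its log2 fold change turned to -0.10, and without Wt1_CKO replicate 2 it was 0.40.

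Ythdf1 (ENSMUSG00000038848, chromosome 2, 180904377 to 180920949, minus strand), known for promoting translation of methylated RNA, measured 96.1 and 93.1 CPM in the Wt1_flfl libraries and 97.9 and 95.5 CPM in the Wt1_CKO libraries. Its log2 fold change of 0.03 had an interval from -0.22 to 0.28. Ythdc1 (ENSMUSG00000035851, chromosome 5, 86804221 to 86836659, plus strand), the nuclear reader that acts in splicing, export and silencing by Xist, measured 122 and 117 CPM in the Wt1_flfl libraries and 124 and 117 CPM in the Wt1_CKO libraries. It had the smallest difference of the 10, 0.928%, with a limma-voom interval from -15.3% to 20.2%. Of the 50-base words of Ythdc1 4.23% also occur in Gm43055, which overlaps it on the same strand. For both genes the genotypes overlapped and replicate 1 was the higher library in each genotype.

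Neither eraser passed the test by genotype. Alkbh5 (ENSMUSG00000042650, chromosome 11, 60536381 to 60558512, plus strand), a nuclear demethylase of m6A, measured 62.5 and 84.0 CPM in the Wt1_flfl libraries and 63.5 and 80.9 CPM in the Wt1_CKO libraries. The libraries fell together by replicate number and not by genotype. Fto (ENSMUSG00000055932, chromosome 8, 91313525 to 91668439, plus strand), which acts on m6A and on the methylated cap-adjacent adenosine, measured 138 and 150 CPM in the Wt1_flfl libraries and 130 and 154 CPM in the Wt1_CKO libraries. The Wt1_CKO libraries were the lowest and the highest of the 4. The log2 fold changes were -0.02 for Alkbh5 and -0.03 for Fto, and for both genes pair 1 and pair 2 had opposite signs (0.02 and -0.05 for Alkbh5, -0.09 and 0.03 for Fto). For Fto the ratio was 0.938 in pair 1, with a counting interval from 0.885 to 0.995, and 1.02 in pair 2, from 0.967 to 1.08. The counting intervals of Alkbh5 included no change in either pair.

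**Figure D2:**
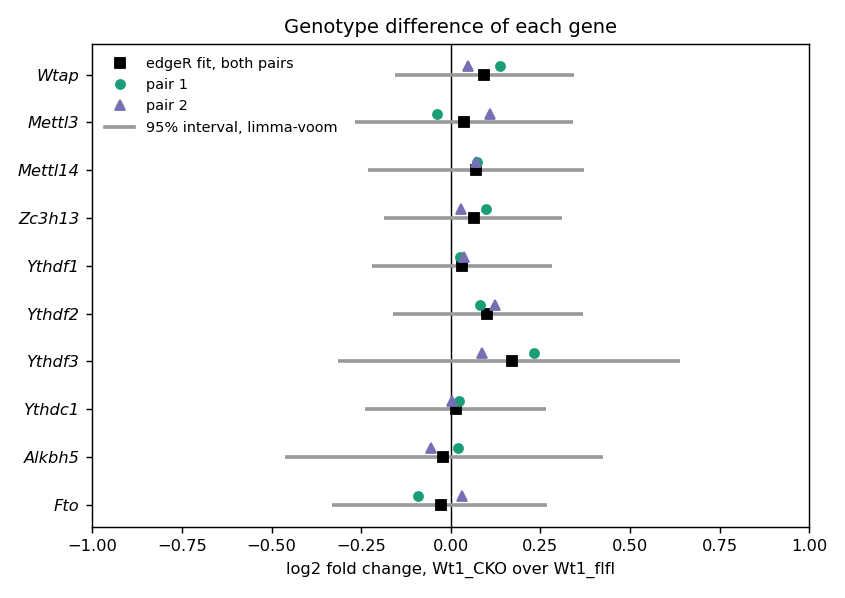
Log2 fold change of Wt1_CKO over Wt1_flfl for each gene (x axis), as black squares from the edgeR fit, circles for pair 1 and triangles for pair 2, with grey bars for the 95% limma-voom interval. Every bar crosses 0, and both pairs lie above 0 for 7 of the 10 genes.

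The direction of change was counted as a description. In both pairs 7 of the 10 genes had the higher level in Wt1_CKO, Wtap, Mettl14, Zc3h13, Ythdf1, Ythdf2, Ythdf3 and Ythdc1, and 0 were lower in both. Among all genes tested the shares were 27.0% for a higher level in each pair and 25.9% for a lower one. Both Wt1_CKO libraries were above both Wt1_flfl libraries for 3 of the 10, Wtap, Zc3h13 and Ythdf2, and below for 0, beside 13.4% and 13.5% of all genes tested. The 10 genes share the same 4 libraries and their scaling, so they are not independent of each other. For Mettl3, Alkbh5 and Fto the pairs differed in sign.

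The authors' deposited tables gave their own comparison of 1 library with 1 library in each pair. The authors' deposited tables marked 0 of the 10 genes as significant in either pair, where 3.2% of all listed genes were marked in pair 1 and 3.19% in pair 2. By the adjusted p of the authors' deposited tables alone, 3 of the 10 were under 0.05 in pair 1 and 1 in pair 2, beside 23.3% and 19.2% of all listed genes. Those were Ythdf3, Wtap and Zc3h13 in pair 1 and Ythdf2 in pair 2, with fold ratios of 1.19, 1.12, 1.09 and 1.10 in the authors' deposited tables. In pair 1 the libraries also differ in the sex markers and in Rn7sk, as given above.

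The libraries were then compared by replicate number, a contrast chosen after the values per library were seen and with no meaning given in the labels. In an edgeR fit with genotype and replicate number as terms, 2 of the 10 genes differed between replicate 2 and replicate 1, beside 7.14% of all genes tested. Ythdf3 fell by 0.43 on the log2 scale from replicate 1 to replicate 2 (edgeR adjusted p 0.00552), and Alkbh5 was higher in replicate 2 by 0.39 (edgeR adjusted p 0.0157). The direction held in both genotypes, with a ratio of replicate 2 to replicate 1 of 0.778 (counting interval 0.727 to 0.833) in Wt1_flfl and 0.704 (0.661 to 0.750) in Wt1_CKO for Ythdf3. For Alkbh5 the ratios were 1.34 (1.24 to 1.46) and 1.27 (1.18 to 1.38). Fto was also higher in replicate 2 in both genotypes, by 0.18 on the log2 scale, and did not pass (edgeR adjusted p 0.236). Both calls depended on the test. With DESeq2 the adjusted p was 0.0666 for Ythdf3 and 0.210 for Alkbh5, and in an edgeR fit with replicate number as the only term it was 0.0654 and 0.0620.

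For 6 of the 10 genes the replicate difference was larger than the genotype difference, beside 62.4% of all genes tested. Both replicate 2 libraries were above both replicate 1 libraries for 3 genes, Alkbh5, Fto and Mettl14, and below for 3, Ythdf3, Ythdf1 and Ythdc1, beside 24.7% and 25.0% of all genes tested. Other measures moved with the replicate number too. The neuron markers summed to 5366 and 5323 CPM (of listed counts) in the replicate 1 libraries and to 4769 and 4551 CPM in the replicate 2 libraries, with Wt1_flfl first, and the progenitor markers to 1846 and 1856 CPM against 2221 and 2338 CPM. Single genes carried much of both shifts. Neurod6, a factor of young cortical neurons, went from 595 to 305 CPM in Wt1_flfl and from 766 to 365 CPM in Wt1_CKO between replicates 1 and 2, and Nes, an intermediate filament of progenitors, from 461 to 779 CPM and from 523 to 820 CPM. Stmn2 and Dcx were also lower in replicate 2 in both genotypes, while Map2 was nearly level in Wt1_flfl (859 and 855 CPM) and lower in Wt1_CKO, and Tubb3 was lower in Wt1_flfl and higher in Wt1_CKO (1994 and 2059 CPM). Of the other progenitor markers Vim, Hes5 and Sox2 were higher in replicate 2 in both genotypes, and Pax6 was lower in both (122 and 115 CPM, 132 and 127 CPM). The part of these shifts in the values of Ythdf3 and Alkbh5 was not tested, and in bulk tissue fewer cells of a type and less RNA per cell cannot be told apart.

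**Figure D3:**
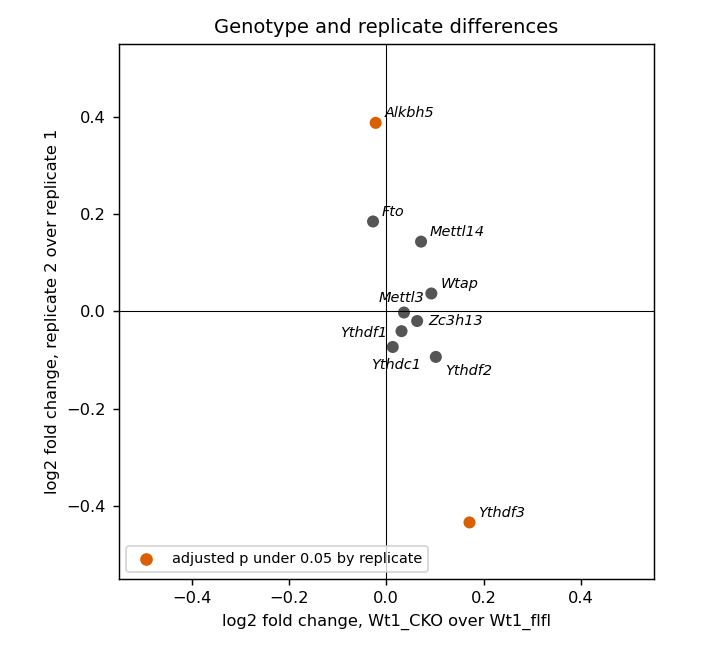
Log2 fold change of Wt1_CKO over Wt1_flfl (x axis) and of replicate 2 over replicate 1 (y axis) from edgeR for each gene, on equal scales, with genes of an adjusted p under 0.05 by replicate in orange. Ythdf3 lies at -0.43 and Alkbh5 at 0.39 on the y axis, while every gene lies between -0.03 and 0.17 on the x axis.

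The levels of the 10 genes were ordered per length, as CPM per kb of the union of exons in GENCODE vM21. Ythdf1 was the highest, with 28.1 to 29.5 CPM per kb over the 4 libraries, above every other gene in each library. Ythdf3 (16.9 to 25.5), Ythdf2 (17.7 to 20.3) and Wtap (16.7 to 18.4) followed with overlapping ranges, and Ythdf3 was above Ythdf2 in only 2 of the 4 libraries. Zc3h13 had 15.9 to 17.0 CPM per kb and was below Wtap in each library. Alkbh5 (10.4 to 14.0) and Fto (9.94 to 11.8) overlapped. Ythdc1 (8.59 to 9.12) was below both. Mettl3 (6.91 to 7.46) and Mettl14 (6.65 to 7.72), the pair that forms the catalytic core, were the lowest and did not differ from each other beyond their spread, each above the other in 2 of the 4 libraries. Among 13653 protein-coding genes tested, the level per kb of Ythdf1 stood at percentile 86.5 and that of Mettl14 at percentile 53.9.

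The order depends on the length used. Taken per kb of the longest annotated transcript, Wtap had 34.8 CPM per kb, Fto 30.4 and Ythdf1 30.0, the highest 3, and Mettl14 with 7.40 remained the lowest, while Mettl3 had 16.9. The exon union counts every annotated exon, used in these brains or not, so genes with many annotated transcripts can be set too low by it. Wtap per length was 2.29 to 2.59 times Mettl3 over the 4 libraries with the exon union.

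**Figure D4:**
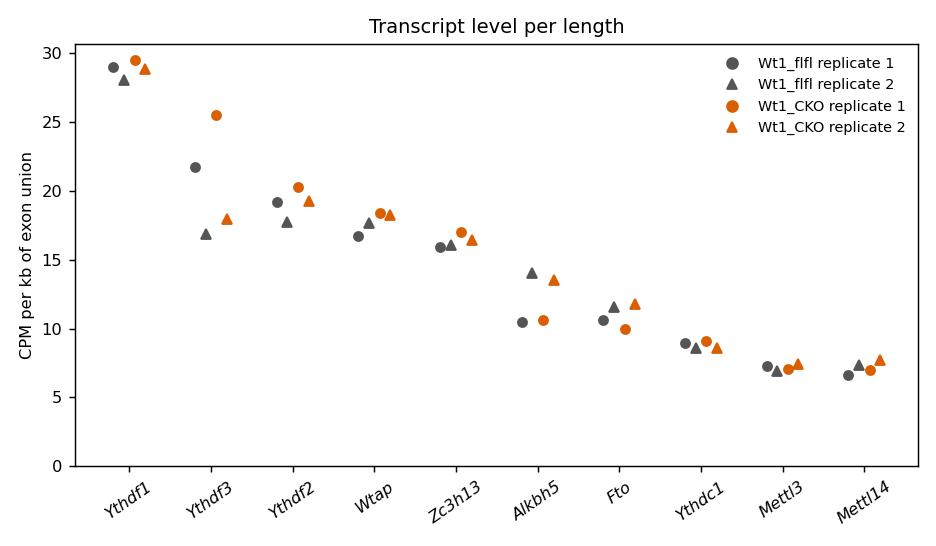
Level per length (CPM per kb of exon union, y axis from 0) of the 10 genes in the 4 libraries, ordered by the mean over the libraries. Ythdf1 stands above the other genes, and Mettl3 and Mettl14 lie together at 6.65 to 7.72 CPM per kb.

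The rest of the pathway was described from lists of 45 further genes, of which Mat2a stood on 2 lists. Of the 45, 0 passed edgeR's test and 0 had an unadjusted p under 0.05, beside 1 and 249 of all 15933 genes tested. DESeq2 and limma-voom called 0 of them as well, beside 5 and 1 of all genes tested. With the replicate number as a block 0 were called and 5 had an unadjusted p under 0.05, beside 1146 of the 15933 genes tested. Of the 45, 16 were higher and 10 lower in both pairs, beside 27.0% and 25.9% of all genes tested. The same 2 shares stand beside the count of each list below, and no list was tested as a set. Of the other subunits of the writer complex, 1 of 4 was higher in both pairs and 0 were lower in both. That was Virma, the scaffold that guides the complex to the end of the transcript, at 81.1 ± 6.64 CPM in the floxed controls and 88.9 ± 2.77 CPM in the knockout (SD, n = 2 a genotype). Rbm15 and Rbm15b, which bring the complex to Xist and other RNAs, had log2 fold changes of 0.01 and 0.00, and Cbll1, a ubiquitin ligase-like subunit, one of -0.13. Of 6 other adenosine methyltransferases and partners 1 was higher and 3 lower in both pairs, with log2 fold changes of -0.25 for Trmt112, the cofactor of Mettl5, and -0.15 for Pcif1, which methylates the cap-adjacent adenosine.

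Of 10 other proposed readers 4 were higher and 2 lower in both pairs. Hnrnpa2b1 averaged 2032 ± 31.3 CPM in the floxed controls and 2222 ± 4.24 CPM in the knockout (SD, n = 2 a genotype), and Ythdc2, a YTH protein with a helicase domain, a log2 fold change of 0.31. Of 5 decay factors 2 were higher and 1 lower in both pairs, and Cnot1, the scaffold of the deadenylase bound by Ythdf2, and the decapping enzyme Dcp2 had log2 fold changes of 0.11 and 0.08. Of 7 AlkB relatives of the erasers 1 was higher and 2 lower in both pairs, with -0.33 for Alkbh6 and 0.23 for Alkbh1. Of 5 genes of S-adenosylmethionine supply and turnover 2 were higher and 1 lower in both pairs, with 0.07 for Mat2b, a subunit of the synthetase, and -0.12 for Ahcyl2. The median log2 fold change of the 45 genes was 0.04, beside 0.01 over all genes tested.

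The last list held 9 RNAs that are known to carry m6A or to depend on its enzymes. Of these 6 were higher and 1 lower in both pairs, beside 27.0% and 25.9% of all genes tested, a count given no test. Emx2 and Eomes, transcription factors of the dorsal telencephalon, had log2 fold changes of 0.19 and 0.26. Ccna2, a cyclin whose messenger is known to depend on Wtap, averaged 139 ± 1.08 CPM in the floxed controls and 147 ± 0.840 CPM in the knockout (SD, n = 2 a genotype), a log2 fold change of 0.08. Mat2a, whose splicing Mettl16 controls, had 286 ± 7.07 and 296 ± 4.02 CPM in the same order. The counts of Xist, which Ythdc1 and the Rbm15 proteins serve, differed by library as given above, where the library with 4 counts is the one with Y-linked counts. Ythdc1 had 124 CPM in that library and 117 to 122 CPM in the other 3, and a link between Ythdc1 and Xist was not tested.

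By replicate number 5 of the 45 pathway genes were called in the edgeR fit with genotype and replicate number, beside 7.14% of all genes tested. Igf2bp1, a reader that stabilises its target RNAs, was higher in replicate 2 by 0.66 on the log2 scale (edgeR adjusted p 0.00014). Malat1, a nuclear long noncoding RNA, and Sox1, a factor of neural progenitors, were higher in replicate 2 by 0.40 and 0.35 (edgeR adjusted p 0.0219 and 0.0200). Ythdc2 fell by 0.58 from replicate 1 to replicate 2 and Eomes fell by 0.39 (edgeR adjusted p 0.0186 and 0.0092). Both DESeq2 and the edgeR fit with replicate number as the only term called 1 of the 45, Igf2bp1, with adjusted p of 9.8e-05 and 0.0127. Over all genes tested they called 280 and 313.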

How the data were processed

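RNA of 4 brain samples was sequenced after oligo(dT) enrichment and random priming, per the labels' protocols. Bowtie2 2.2.3, TopHat2 2.0.12, HTSeq 0.6.0 and the build mm9 are named in the submitters' processing notes. The positions in the deposited tables are those of GRCm38: of 22414 gene IDs 22368 were found in GENCODE vM21, and 92.1% of these had the same position.

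Per the file headers, the authors deposited whole-number counts per gene and the CPM of each library (a count of 0 entered as 0.5), the fold ratio of the CPM values, its log2 and p-values and adjusted p-values of 1 library against 1, the test behind which is not given in the sources used here.

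For the genes present in each of the tables, the counts entered edgeR 4.0.16 under R 4.3.3 (filterByExpr with a minimum count of 10, TMM, quasi-likelihood F test, genotype as the only term, Benjamini-Hochberg over 15933 genes, threshold 0.05). Within a pair, log2 CPM values (prior count 2) were subtracted. Intervals are from limma-voom (limma 3.58.1) at 95%, not adjusted for the number of genes, or exact conditional binomial intervals of count ratios. Alternatives were DESeq2 1.42.0 and its size factors, no scaling, other filters, the replicate number as a block, and leaving out each library. The libraries' 16219310 to 17704698 counts give each of the 10 genes 594 to 2646 counts a library. Named were all 10 genes, the writer subunits beside them, Xist, and up to 2 genes of each list by the smallest p. Other genes named (Igf2bp1, Malat1, Sox1, Mat2a, Ccna2, Tox4, the pseudogenes and the markers) were picked with their values in view. The genes and lists were chosen with earlier results of these data known.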

Additional observations from a re-analysis of the deposited data

How the results depend on the processing

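None of the 10 genes was called by genotype under any of the 12 alternatives, and the adjusted p over them ran from 0.771 to 0.999997. Of 120 log2 fold changes under these alternatives, 111 kept their sign, and Wtap, Zc3h13, Ythdf1 and Ythdf2 kept it throughout. For Wtap, Zc3h13 and Ythdf2 both Wt1_CKO libraries lay above both Wt1_flfl libraries, so leaving out 1 library could hardly turn the sign. The other alternatives reuse the same 4 libraries. The 9 changes of sign arose from leaving out 1 library, which leaves a lone sample assumed to vary like the other genotype. Without Wt1_flfl replicate 2 the log2 fold change was -0.0017 for Mettl3, -0.02 for Ythdc1, 0.21 for Alkbh5 and 0.04 for Fto. Without Wt1_CKO replicate 1 it was -0.10 for Ythdf3, -0.03 for Ythdc1, 0.14 for Alkbh5 and 0.09 for Fto, and without Wt1_CKO replicate 2 it was -0.00044 for Mettl14. Over the 4 such fits the values ran from -0.0017 to 0.077 for Mettl3, -0.00044 to 0.15 for Mettl14, -0.10 to 0.40 for Ythdf3, -0.030 to 0.055 for Ythdc1, -0.22 to 0.21 for Alkbh5 and -0.15 to 0.090 for Fto. The cause was not tested.

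Over all genes edgeR called 1 gene by genotype, DESeq2 called 5, and the counts without 1 library ran from 3 to 73. Dropping the Wt1_flfl libraries gave 73 calls for replicate 1 and 29 for replicate 2, and dropping those of Wt1_CKO gave 3 for replicate 1 and 7 for replicate 2. The replicate block gave 42 calls, 0 of them among the 10 genes or the 45 pathway genes. Of the 45, 5 had an unadjusted p under 0.05 there, beside 1146 of the 15933 genes tested. Such numbers are not given for the fits without 1 library, as the lone sample has no spread of its own. No label says that a number marks a shared litter or day, and the deviations of same-numbered samples from their group means had a correlation of 0.28 across 15933 genes. Without Wt1_CKO replicate 2 the only Wt1_CKO library left is the one with 4 counts of Xist and 1141 of the Y-linked gene Kdm5d. For Xist, genotype and the sex markers cannot be told apart in that fit. By replicate number limma-voom called 2 of the 10 genes, as edgeR did, beside 1172 genes over all those tested. DESeq2 and the fit without genotype called 0 of the 10, beside 280 and 313 genes. The replicate difference of Mettl3 was -0.0023 with edgeR and 0.00019 with DESeq2. Mettl3 had 594 to 652 counts a library. By counting error alone, its ratio of replicate 2 to replicate 1 had an interval from 0.845 to 1.06 in Wt1_flfl and from 0.941 to 1.17 in Wt1_CKO.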
